A study of Mus musculus with 12 samples.

Results

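The genes described here encode the proteins of the cytosolic ribosome in mouse heart muscle. They were chosen by name: every symbol made of Rpl, Rps or Rplp followed by a number and its usual letter endings, so that the ribosomal S6 kinases and the genes named as pseudogenes stay out. This gave 87 of the 33641 symbols measured, 52 of the large subunit and 35 of the small subunit, through 451 of 105129 transcripts. The annotation gives 82 of them as protein coding and 5 as processed pseudogenes (Rpl6l, Rps12l1, Rps3a2, Rps3a3 and the transcribed Rps4l). RNA came from the myocardium of 12 male wild-type C57BL/6 mice in 4 groups of 3. A group had either a sham operation or surgery that produced a myocardial infarction (MI), followed by vehicle or by prednisone, a synthetic glucocorticoid. Prednisone was injected into the abdomen at 1 mg/kg once a week at lights-on for 6 weeks, beginning 2 weeks after surgery in mice of about 10 weeks of age, and the heart muscle was collected 24 hours after the last dose, at a labelled age of about 16 weeks. Neither the labels nor the protocols give infarct size or say whether scar and remote muscle were separated, and no group carries a genetic change.

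A ribosome joins a small subunit, which reads the mRNA, to a large subunit, which links the amino acids, and each subunit needs nearly every one of its proteins in equal number. The mRNAs of these proteins typically begin with a C followed by a run of pyrimidines at their cap, a sequence known as the 5′ TOP motif, through which growth signalling by mTORC1 and the protein LARP1 sets their translation. Most are made in every cell type, so the heart's muscle cells, fibroblasts and immune cells all contribute to them. RPL3L is an exception: it replaces RPL3, a protein of the peptide-bond centre, in the ribosomes of cardiac and skeletal muscle cells.

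The bases at the annotated starts are shown because the TOP motif, where an mRNA has one, lies there, and members differ in it. RefSeq promoter entries (build GRCm38.p6) were matched by symbol for 62 of the 87 genes, with 74 starts. Each line gives 30 bases, 10 before the annotated start and 20 from it on, on the strand of the gene, and the capitals mark the longest run of C or T of at least 6 letters. Rpl3l is given at both of its annotated starts.
Rpl3l, first start, chr17:24727816-24727845, plus strand: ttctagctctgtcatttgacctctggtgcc
Rpl3l, second start, chr17:24732675-24732704, plus strand: caacagctacagtgccccaaatgtcctgaa
Rps6, chr4:86857348-86857377, minus strand: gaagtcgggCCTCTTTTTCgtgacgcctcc
Rpl38, chr11:114668570-114668599, plus strand: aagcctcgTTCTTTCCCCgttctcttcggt
Rps27, chr3:90213629-90213658, minus strand: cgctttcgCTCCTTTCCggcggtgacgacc
Rplp2, chr7:141447641-141447670, plus strand: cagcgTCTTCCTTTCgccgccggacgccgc
Rpl22l1, chr3:28805498-28805527, plus strand: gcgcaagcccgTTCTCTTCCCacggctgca
Rpl10, chrX:74270806-74270835, plus strand: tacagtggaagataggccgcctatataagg
A run of at least 6 C or T letters, searched on the gene's own strand, lay in 40 of the 74 windows (54.1%) and in 28.7% of the 32851 windows of all genes. The run covered the annotated start base itself in 19 of the 74 windows (25.7%), against 6.72% of all windows. Neither Rpl3l window nor the Rpl10 window held such a run, as with the other members' windows that lacked one, which says only that these letters are not in these windows. Rpl3 is named only.

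TPM, the unit of all levels, is transcript abundance per length scaled to a fixed total per library, so that levels of different genes can be set side by side and every value is a share of its library. The 87 genes summed to between 2.67% and 3.16% of all TPM in the sham vehicle hearts and to between 2.75% and 3.06% in the sham prednisone hearts. They reached 3.36%, 3.73% and 5.90% in the MI vehicle hearts (mice 1, 2 and 3) and 4.46%, 4.62% and 3.00% in the MI prednisone hearts. MI vehicle mouse 3 and MI prednisone mouse 3 stood apart from the other mice of their groups. Mitochondrially encoded transcripts held between 32.4% and 42.0% of TPM in the sham hearts. They held 35.2%, 36.7% and 23.1% in the MI vehicle hearts and 24.6%, 21.6% and 35.9% in the MI prednisone hearts. With mitochondrial, nuclear-copy and globin rows removed, the 87 genes held 6.27% to 6.96% of the rest in sham hearts, 7.46%, 7.73% and 9.64% in MI vehicle hearts and 9.30%, 8.66% and 6.81% in MI prednisone hearts. The sum over small-subunit genes was 0.79 to 0.83 times that over large-subunit genes in the 12 libraries.

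**Figure D1:**
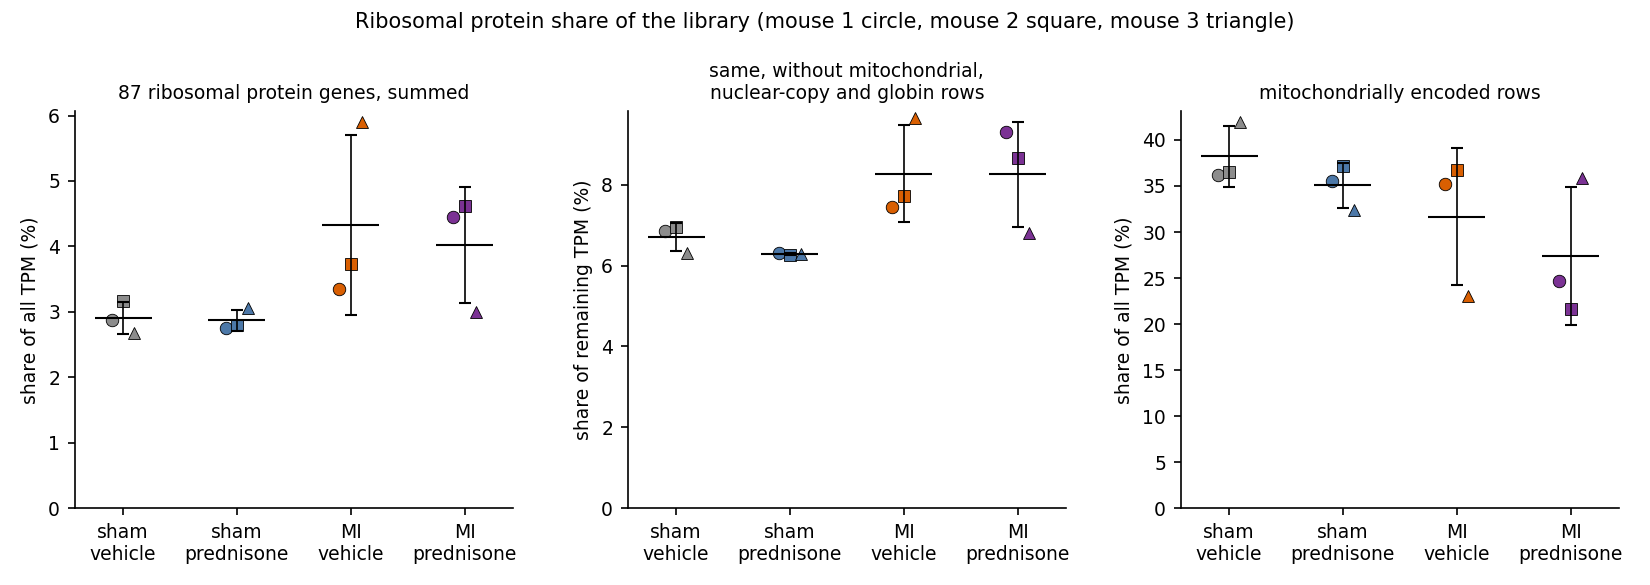
Summed share of TPM (percent, y axis) for each mouse in the 4 groups: the 87 ribosomal protein genes over all TPM, the same genes over the TPM left without mitochondrial, nuclear-copy and globin rows, and the mitochondrially encoded rows; lines are group means with SD bars, n = 3. The sham hearts sit between 2.67% and 3.16% in the first panel, while mouse 3 of each MI group lies away from the other two.

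Of the 87 genes, 83 reached 1 TPM in 3 or more of the 12 libraries and were tested; Rpl10l, Rpl39l, Rps3a2 and Rps3a3 did not reach it. The mean level was 100 TPM or more for 75 genes, and the median of the tested members' means was 402 TPM, against 7.48 TPM for all 13158 genes tested. The members moved together from library to library: over the 12 libraries, which share depth and scaling within each, 68 of 83 had a Pearson r of at least 0.9 between their log2 level and the median of the other members, with a median r of 0.97. The least like the rest were Rpl3l (r = -0.81), Rps12l1 (0.48), Rpl10 (0.51) and Rps4l (0.59). These r values describe the libraries and carry no test.

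After infarction with vehicle, nearly all ribosomal protein genes had positive differences from sham hearts, as did most genes, and Rpl3l was the exception. The median change over the 83 tested members was 0.56 on the log2(TPM + 1) scale, with 82 of 83 above 0, while the median over all 13158 genes was 0.39, with 86.7% above 0. Limma, with Benjamini-Hochberg adjustment over all genes, called 8 members at an adjusted p under 0.05, against 16% of all genes tested (15.1% higher and 0.904% lower): Rpl3, Rpl4, Rpl10, Rpl10a, Rpl12, Rpl31 and Rps6 higher, and Rpl3l lower. The 3 MI vehicle hearts lay above all 3 sham vehicle hearts for 61 members (40.8% of all genes did so) and below them for Rpl3l alone (4.17% of all genes). The number called depended on single mice, for all genes too. It was 67 without MI vehicle mouse 1 (42.8% of all genes), 18 without MI prednisone mouse 3 (14.7%) and 2 without MI vehicle mouse 3 (7.34%). Without sham vehicle mouse 1, 2 or 3 it was 1, 3 or 0 (1.28%, 8.82% and 0.912% of all genes), and it was 4 or 5 without any one of the sham prednisone mice or MI prednisone mouse 1 or 2 (8.72% to 12.4%). Of 25 alternatives, the 8 calls were lost in 4 (Rpl3l) to 21 (Rpl12 and Rps6). In whole tissue, fewer cells of a type and less RNA per cell cannot be told apart.

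Rps6, the small-subunit protein that S6 kinases phosphorylate, was at 324.9, 313.5 and 288.5 TPM in sham vehicle hearts and at 394.1, 423.4 and 684.0 TPM in MI vehicle hearts. The groups did not overlap, and mouse 3 with an infarct was the highest by far. The change was 0.65 on the log2 scale (SE 0.20, limma adjusted p = 0.046). Rpl31, a protein at the rim of the exit tunnel, had 243.1, 246.4 and 231.9 TPM in sham vehicle hearts against 309.3, 344.5 and 457.4 TPM after infarction. Its change of 0.60 (SE 0.15, limma adjusted p = 0.029) was among the smaller ones called, and its 3 sham values were close together. Rpl4, a large-subunit protein lining the exit tunnel, was higher by 0.64 (SE 0.19, limma adjusted p = 0.047). Rpl12, a protein near the stalk base, was higher by 0.87 (SE 0.26, limma adjusted p = 0.046), from a level of only 7.44 to 7.78 TPM in sham vehicle hearts. With its near-identical copies added, Rpl12 differed by 0.69 (limma adjusted p = 0.077), so that its call was lost. The calls of Rpl31 and Rps6 were lost with copies added too, and that of Rpl4 was kept. Copies held 53.7% of the sum of gene and copies for Rpl31 and 17.0% for Rps6.

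Cell-type markers were read in the same hearts. Summed over 7 fibroblast markers, TPM ran from 379 to 511 in sham vehicle hearts and from 890 to 1150 in MI vehicle hearts, and all 7 were called higher. Over 7 macrophage markers the sum ran from 271 to 388 and from 607 to 1333, and again all 7 were called higher. Over 8 cardiomyocyte markers the sum ran from 31882 to 33667 TPM in sham vehicle hearts and from 22585 to 28271 TPM in MI vehicle hearts, with 3 called lower. The 4 lymphocyte markers summed to 188 TPM in MI vehicle mouse 3 and to between 3.09 and 15.4 TPM in the other 11 hearts. The 5 atrial markers summed to between 855 and 2512 TPM in sham vehicle hearts and between 2813 and 4122 TPM in MI vehicle hearts. Gene by gene, only 2 of the 5 had positive differences, with 1 called higher and a median change of -0.77. None of the markers in these lists was at 0 throughout, and their part in the ribosomal protein changes was not tested.

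**Figure D2:**
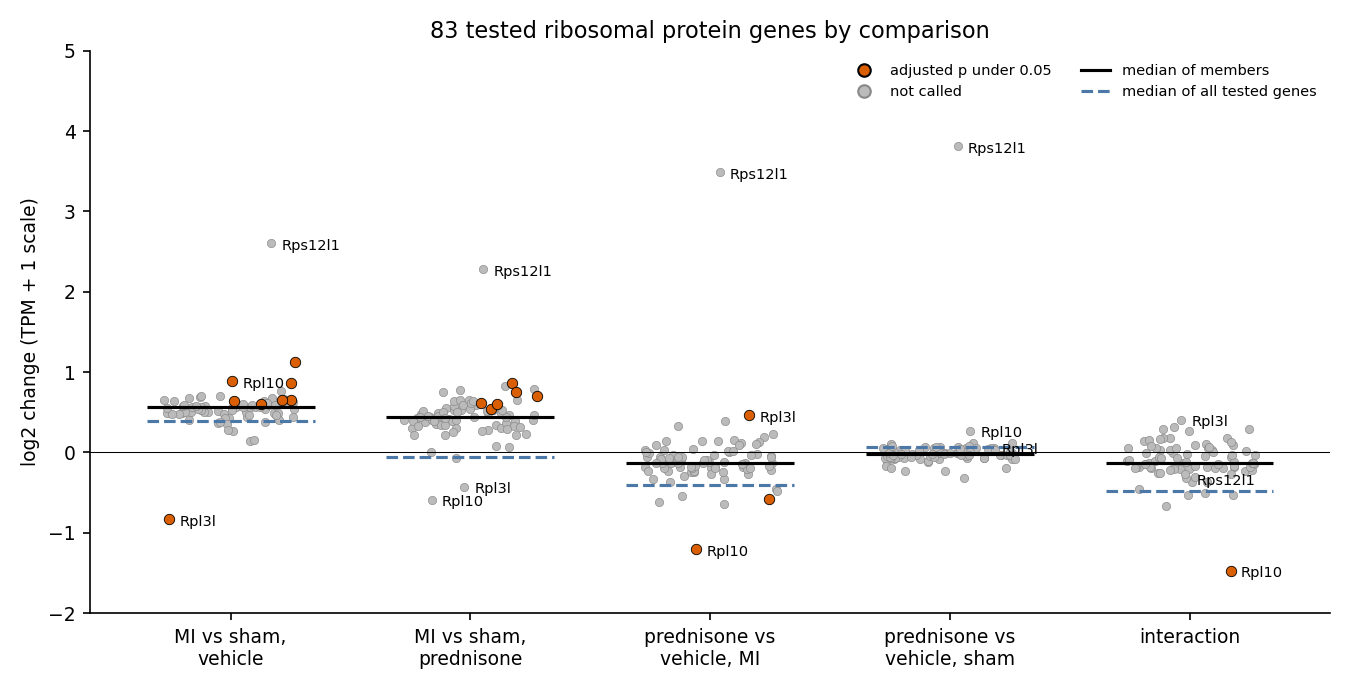
Log2 change (log2(TPM + 1) scale, y axis) of each of the 83 tested ribosomal protein genes in 5 comparisons; orange points passed limma at an adjusted p under 0.05, black lines are medians of the members and dashed blue lines medians of all 13158 genes. The members' median lies above that of all genes in all comparisons but prednisone against vehicle in sham hearts, and Rpl3l, Rpl10 and the copy Rps12l1 are labelled; Rps12l1, never called, lies highest in all comparisons but the interaction.

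Rpl3 and Rpl3l moved in opposite directions after infarction. Rpl3, the general form, was at 158.0, 166.5 and 120.6 TPM in sham vehicle hearts and at 224.6, 277.5 and 531.2 TPM in MI vehicle hearts. Its rise was the largest among the called members, 1.12 on the log2 scale (SE 0.27, limma adjusted p = 0.025). Rpl3l, the muscle form (chr17:24727820-24736143, plus strand, GRCm38), was at 150.7, 150.6 and 161.7 TPM in sham vehicle hearts and at 105.9, 86.5 and 69.8 TPM in MI vehicle hearts. The mouse with the most Rpl3 had the least Rpl3l, and the groups overlapped for neither gene. Rpl3l fell by 0.83 (SE 0.14, limma adjusted p = 0.0080). That call was lost without sham vehicle mouse 3 (adjusted p = 0.052), with only the groups compared in the fit (adjusted p = 0.090) and with the members centred on their own median (change -1.41, adjusted p = 0.056). Length correction with the replicate block lost it too. Over all alternatives the adjusted p of Rpl3l in this comparison ran up to 0.090.

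Under prednisone the same pair was closer. Rpl3 was at 137.5, 128.0 and 142.9 TPM in sham prednisone hearts and at 222.6, 241.0 and 162.2 TPM in MI prednisone hearts, a difference of 0.59 (SE 0.27) that limma did not call (adjusted p = 0.16). Rpl3l was at 154.5, 155.7 and 172.7 TPM in sham prednisone hearts and at 108.9, 126.8 and 122.1 TPM in MI prednisone hearts, a difference of -0.43 (SE 0.14) at an adjusted p of 0.051. Both genes' groups stayed apart without overlap. Set against each other within the infarcted hearts, Rpl3l was higher with prednisone than with vehicle by 0.46 (SE 0.14, limma adjusted p = 0.022), and every MI prednisone heart lay above every MI vehicle heart. The call was lost in 9 of 25 alternatives. These were without MI vehicle mouse 3 (0.31, adjusted p = 0.055) or MI prednisone mouse 2 or 3 (adjusted p = 0.068 and 0.053), with mitochondrial rows removed (0.055), with family centring (0.17), by the most abundant transcript (0.060), with only the groups compared (0.13), and with length correction alone or with the replicate block (0.068 and 0.11). The same comparison gave Rpl3 a difference of -0.64 (SE 0.27, limma adjusted p = 0.082). The interaction for Rpl3l, the prednisone effect in MI minus that in sham, was 0.40 (SE 0.19, limma adjusted p = 0.15).

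The ratio of the muscle form to the general form does not depend on how a library is scaled. Rpl3l to Rpl3 was 0.954, 0.904 and 1.34 in sham vehicle hearts and 1.12, 1.22 and 1.21 in sham prednisone hearts. It was 0.472, 0.312 and 0.131 in MI vehicle hearts and 0.489, 0.526 and 0.752 in MI prednisone hearts. Every infarcted heart thus had less Rpl3l than Rpl3, and no infarcted heart reached the lowest sham heart. Surgery labels permuted within each treatment gave a ratio 0.354 times as high after MI, a mean log2 difference of -1.50, at an exact two-sided p of 0.005, the smallest this design can give, and the mean stayed between -1.70 and -1.24 with each mouse left out. Between prednisone and vehicle, permuted within surgery, the log2 ratio was higher by 0.64 (exact two-sided p = 0.040). That difference was 1.11 among the infarcted hearts (exact p = 0.10, the smallest 3 against 3 mice allow) and 0.17 among sham hearts (exact p = 0.40), and whether these differ was not tested. Leaving out single mice raised the exact p to 0.05 or more in 9 of the 12 cases (up to 0.13), and without MI vehicle mouse 3 the difference was 0.38 (exact p = 0.080).

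**Figure D3:**
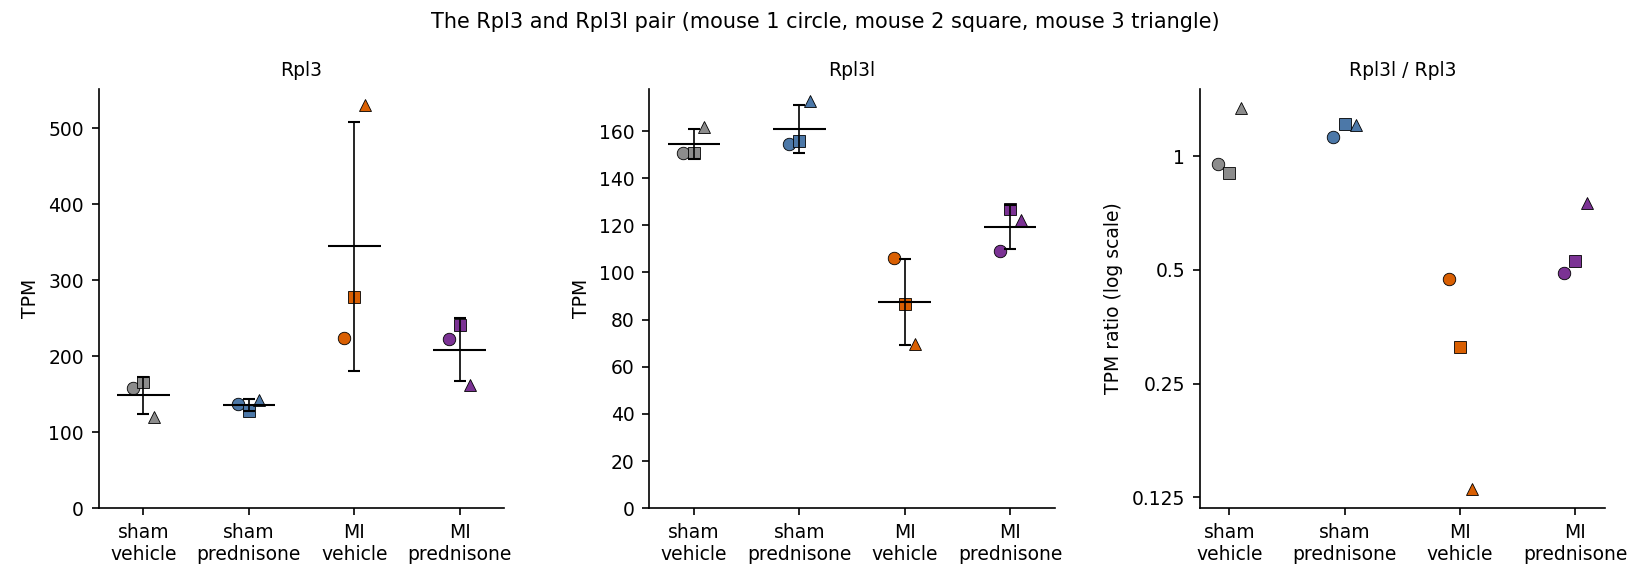
TPM of Rpl3 and Rpl3l (y axes from 0, lines are means with SD bars, n = 3) and their ratio on a log axis, 1 point a mouse in each of the 4 groups. The ratio lies between 0.904 and 1.34 in sham hearts and between 0.131 and 0.752 in infarcted hearts.

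Rpl3l was also set against the 8 cardiomyocyte markers, since both come from muscle cells. Relative to the median marker and to the sham vehicle mean, log2 Rpl3l was between -0.11 and 0.05 in the sham hearts, at -0.21, -0.41 and -0.35 in MI vehicle hearts and at -0.32, -0.10 and -0.27 in MI prednisone hearts. The MI vehicle hearts lay below all sham hearts on this measure, while MI prednisone mouse 2 lay within the sham range. The single markers differed. With vehicle, the MI minus sham difference ran from -0.82 (over Actc1) to -0.15 (over Ttn), with overlap of the groups over Ryr2 and Ttn. With prednisone it went both ways, from -0.58 (over Tnni3) to 1.04 (over Ryr2), and was also above 0 over Pln (0.33), Ttn (0.15) and Myh6 (0.01). A smaller share of muscle cells and less Rpl3l per muscle cell cannot be told apart from these values.

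With prednisone in both arms, most ribosomal protein genes again had positive differences after infarction, while fewer than 50% of all genes did. The members' median was 0.44, with 80 of 83 above 0, against -0.06 for all genes, with 44.2% above 0. The summed share of MI prednisone mouse 3 (3.00%) lay within the sham prednisone range. Limma called 6 members, all higher (of all genes 16.8% were called, 2.73% higher and 14.1% lower): Rpl24, Rpl28, Rpl31, Rpl36a, Rpl41 and Rplp1. The 3 MI hearts lay above the 3 sham hearts for 33 members (12.9% of all genes) and below them for 1, Rpl3l (32.2% of all genes). The count was 42 without MI prednisone mouse 3 (20% of all genes called), 36 without MI vehicle mouse 3 (30.2%) and 10 without MI vehicle mouse 1 (18.8%). It was between 0 and 2 without any one of the sham prednisone mice, the sham vehicle mice or the other MI prednisone mice (7.81% to 14.1% of all genes). Of 25 alternatives, the 6 calls were lost in 6 (Rpl31) to 16 (Rplp1). Atrial markers summed to between 4359 and 6191 TPM in MI prednisone hearts and between 1999 and 2709 TPM in sham prednisone hearts, with 1 of 5 called higher; none of the 7 fibroblast or 7 macrophage markers was called. The markers' part in this comparison was not tested.

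Rpl28, a large-subunit protein, was at 193.5, 193.9 and 239.7 TPM in sham prednisone hearts and at 430.4, 431.6 and 292.9 TPM in MI prednisone hearts. Mice 1 and 2 with an infarct were alike and mouse 3 was lower, still above all sham values. The change was 0.86 (SE 0.25, limma adjusted p = 0.038). Rplp1, an acidic protein of the stalk that recruits elongation factors, was at 847.1, 814.8 and 932.5 TPM in sham prednisone hearts and at 1491, 1572 and 995.7 TPM in MI prednisone hearts. It was higher by 0.62 (SE 0.18, limma adjusted p = 0.042). The largest adjusted p-value of the 6 was that of Rpl36a, which was higher by 0.61 (SE 0.19, limma adjusted p = 0.048). Near-identical copies held 58.0% of the sum of gene and copies for Rpl28, 52.4% for Rpl36a and 53.7% for Rpl31. With copies added, the calls of these genes in this comparison were lost, while those of Rpl24, Rpl41 and Rplp1 were kept. Rpl41, the shortest ribosomal protein, was higher by 0.75 (SE 0.20, limma adjusted p = 0.030), from 809.5, 876.1 and 864.9 TPM to 1559, 1635 and 1143 TPM.

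Transcript length and scaling moved with this comparison. The members' transcripts were short, with a median of 676 bases (2321 over every tested gene with a known length), and 71 of the 83 were under 1000 bases. The Spearman correlation across genes between a library's deviation and log length was -0.40, -0.41 and -0.27 in the MI prednisone hearts and between -0.12 and 0.24 in the other 9 libraries, as a description. The other 1706 genes under 1000 bases had a median change of 0.27 in this comparison and 0.31 in MI against sham with vehicle. After a loess curve on length was subtracted from each library, the members' median was 0.19 here (3 called, 12.8% of all genes) and 0.16 in the vehicle comparison (2 called, 5.68% of all genes). Median-ratio rescaling, which moves the median of all genes from 0.39 to 0.02, from -0.06 to 0.03 and, for prednisone against vehicle in MI, from -0.41 to -0.02, gave members' medians of 0.12, 0.55 and 0.33. It called 64 members higher in the prednisone arm (11.7% of all genes), and 1 higher and 1 lower in the vehicle arm (3.72% of all genes each).

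Between infarcted hearts with prednisone and with vehicle, the members changed less than genes at large on the deposited scale, but not less than other short genes. The other 1706 genes under 1000 bases had a median of -0.02. The members' median was -0.13, with 22 of 83 above 0, against -0.41 for all genes, of which limma called 37.4%, with 34.9% lower and 2.5% higher. It called 3 members: Rpl3l higher, and Rpl10 and Rpl10a lower. The direction of the family depended on single mice and on the scaling. Without MI vehicle mouse 3 the median was 0.12, with 71 of 83 above 0, and without MI prednisone mouse 3 it was 0.083, with 59 above 0. Likewise, median-ratio rescaling gave 76 of 83 above 0, with 32 called higher and 1, Rpl10, lower (14.6% and 14.2% of all genes). The length correction also left more members above 0 than below it (60 of 83). The groups were apart for 4 members: Rpl3l was higher (3.59% of all genes), and Rpl10, Rpl10a and Rps3 lower (42.6%). The count called was 7 without MI vehicle mouse 1 (47.7% of all genes), 5 without MI vehicle mouse 3 (31.6%), 1 without MI prednisone mouse 3 (31.1%), 2 without MI prednisone mouse 2 (26.8%) and 3 or 4 without any other mouse. Markers moved between these groups too: all 7 fibroblast markers were called lower with prednisone (sums of 305 to 516 TPM against 890 to 1150). So were 5 of 7 macrophage markers (sums of 304 to 554 TPM against 607 to 1333). Called higher were 3 of 5 atrial markers (sums of 4359 to 6191 TPM against 2813 to 4122) and 3 of 8 cardiomyocyte markers. The cardiomyocyte list was split, with 5 of 8 above 0 and Ryr2 (-0.53), Pln (-0.37) and Actc1 (-0.23) below it, none of these called. The markers' part was not tested. In sham hearts prednisone gave a median of -0.02 against 0.07 for all genes. Limma called 0 of 83 there, against 0.114% of all genes called (0.0532% higher and 0.0608% lower). None of the 83 was at an unadjusted p under 0.05 either, beside 469 of all 13158 genes. Its groups were apart for 3 members, with Rpl7l1 higher and Rpl10a and Rpl36a lower (15.6% and 2.58% of all genes). The interaction had a median of -0.13, against -0.48 for all genes and -0.03 for the other genes under 1000 bases. Limma called 1 member for it, Rpl10 (of all genes 21.3% were called, 20.7% lower and 0.54% higher). That count was 3 without MI vehicle mouse 1 (34.4% of all genes) and 0 without sham vehicle mouse 1 or 3 or sham prednisone mouse 2 or 3 (8.44% to 11.5%). The interaction's median turned to 0.13 without MI vehicle mouse 3 (72 of 83 above 0) and to 0.11 without MI prednisone mouse 3 (61 of 83). Median-ratio rescaling turned that too, to a median of 0.42 with 9 members called higher and none lower (5.12% of all genes were higher).

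Rpl10 encodes a large-subunit protein that joins late in assembly and sits close to the peptide-bond centre. It was at 172.6, 197.8 and 154.1 TPM in sham vehicle hearts, 191.8, 205.9 and 231.8 TPM in sham prednisone hearts, 312.6, 239.0 and 447.8 TPM in MI vehicle hearts and 203.3, 143.7 and 91.8 TPM in MI prednisone hearts. The MI vehicle hearts were the highest and did not overlap with the MI prednisone hearts. Limma gave 0.89 for MI against sham with vehicle (SE 0.27, adjusted p = 0.049), -1.21 for prednisone in MI (SE 0.27, adjusted p = 0.0069) and -1.47 for the interaction (SE 0.39, adjusted p = 0.024). Reads of this gene can be shared with near-identical copies elsewhere in the genome, and those copies held much of the signal. The 8 copies matched to Rpl10 by sequence (at least 95% identity over at least 80% of the copy) were at 245.8, 272.6 and 233.7 TPM in sham vehicle hearts, 231.5, 343.3 and 511.7 TPM in MI vehicle hearts and 428.4, 510.5 and 336.7 TPM in MI prednisone hearts. The copies' share of the joint sum was between 42.5% and 60.3% in the 9 other hearts and 67.8%, 78.03% and 78.6% with MI and prednisone. Gene and copies together gave -0.26 for prednisone in MI (SE 0.21, limma adjusted p = 0.35) and -0.32 for the interaction (adjusted p = 0.46), so that both calls were lost. The call for MI against sham with vehicle was lost with the copies too (0.66, adjusted p = 0.055), and without any one of 8 of the 12 mice. The interaction lost its call without sham vehicle mouse 1 or 3 or sham prednisone mouse 2 or 3 (adjusted p from 0.051 to 0.063), and with median-ratio rescaling (-0.92, adjusted p = 0.092).

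**Figure D4:**
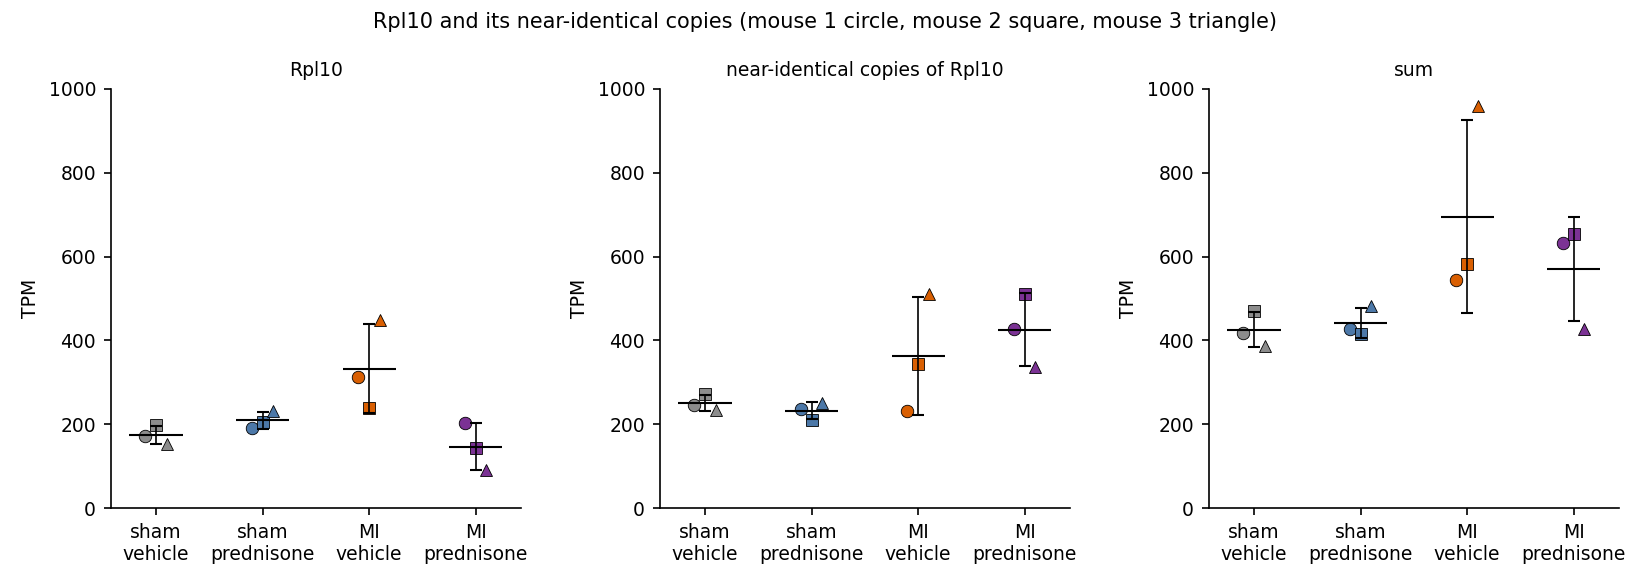
TPM (y axes from 0 to 1000) of Rpl10, of its 8 near-identical copies summed, and of gene and copies together, 1 point a mouse in the 4 groups, with means and SD bars, n = 3. The MI prednisone hearts are low in the first panel (91.8 to 203.3 TPM), high in the second (336.7 to 510.5 TPM) and overlap with the MI vehicle hearts in the sum.

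Rpl10a, a large-subunit protein of the L1 stalk, was also lower with prednisone in MI. It was at 158.6, 162.7 and 211.6 TPM in MI vehicle hearts and at 127.0, 128.5 and 99.6 TPM in MI prednisone hearts, a fall of 0.58 (SE 0.17, limma adjusted p = 0.019). With its single matched copy added the difference was -0.22 (SE 0.22, limma adjusted p = 0.44). The copy's share of the sum was 47.7%, 52.0% and 65.1% in MI vehicle hearts and 64.2% to 67.2% in MI prednisone hearts. It was 64.8% to 66.8% in sham prednisone hearts, so that both prednisone groups overlapped, unlike for the Rpl10 copies. Rpl10a and Rpl10 had opposite signs in other comparisons: 0.40 and -0.59 for MI against sham with prednisone, and -0.32 and 0.26 for prednisone in sham, none of them called. Such copies were matched for 78 members, with 551 transcripts, and held over 10% of the joint sum for 22 members. For Rpl12, Rpl5 and Rpl27 they held 97.9%, 97.6% and 97.1%, so the low gene-level values of these 3 are values of a small remainder. With all copies added, limma called 4 and 3 members in MI against sham with vehicle and with prednisone (16.4% and 17.1% of all genes), 1 for prednisone in MI (37.9%) and none for the interaction (21.6%). Rpl3l has 0 matched copies and those of Rpl3 held 1.15% of the joint sum, so adding copies could hardly move either. Their values were -0.83 and 1.13 for MI against sham with vehicle. Rps12l1, an Rps12-like copy of 399 bases, varied widely within groups (52.8, 0 and 0.234 TPM in sham vehicle hearts, 346.6, 341.9 and 174.7 TPM in MI prednisone hearts) and its level is uncertain for the same reason.

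Single transcripts of a few members changed far more than their genes. Of 336 member transcripts tested, limma called 24 higher and 4 lower in MI against sham with prednisone (6.75% and 15.6% of all 27769 transcripts), 9 higher and 15 lower for prednisone in MI (5.92% and 27.1%), 2 higher and 1 lower in MI against sham with vehicle (2.66% and 0.184%), and 3 higher and 3 lower for the interaction (2.87% and 15.8%). Of the called rises with prednisone in MI, 5 were of transcripts annotated as retained intron or for nonsense-mediated decay, classes that do not give the full-length protein. These 5 were among 146 tested member transcripts not annotated as coding, of which 1 was called lower. The other 4 were among 190 coding ones, of which 14 were called lower. The shares of all transcripts were 5.92% higher and 27.1% lower. Retained-intron transcripts held 1.78% to 2.27% of the family's TPM in sham hearts, 1.96%, 2.44% and 2.72% in MI vehicle hearts and 3.26%, 3.47% and 2.65% in MI prednisone hearts. The transcripts named next were chosen after their values were seen.

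Rpl14, Rpl6 and Rps19, proteins of the large and small subunits, had minor transcripts that rose with prednisone in MI by the deposited values. Of the Rpl14 and Rpl6 transcripts, 1 of 598 and 0 of 486 bases lie outside exons of the gene's other coding transcripts. Their values thus depend on how shared reads were split, which is unknown. For the Rps19 transcript 92 of 395 bases lie outside. The Rpl14 transcript ENSMUST00000216990, annotated for nonsense-mediated decay, was at 7.02, 46.7 and 65.5 TPM in MI vehicle hearts and at 132.8, 153.2 and 94.97 TPM in MI prednisone hearts. It rose by 2.09 with prednisone in MI (SE 0.62, limma adjusted p = 0.025), and its share of the gene was 38.1% against 11.7%. The call was lost without MI prednisone mouse 1 or 2. For Rpl6, the decay-class transcript ENSMUST00000201155 went from 0.63, 2.99 and 3.20 TPM to 33.3, 15.5 and 5.23 TPM, a rise of 2.33 (SE 0.59, limma adjusted p = 0.013) that was lost with a pseudocount of 0.1 (adjusted p = 0.063). The Rps19 retained-intron transcript ENSMUST00000130335 went from 1.79, 0 and 3.38 TPM to 107.8, 57.3 and 9.23 TPM (4.13, SE 1.17, limma adjusted p = 0.020), with a sham vehicle heart at 10.8 TPM. The call was lost without MI vehicle mouse 2 or MI prednisone mouse 1 or 2, and with a pseudocount of 0.1. In the other direction, the coding Rplp0 transcript ENSMUST00000156359 went from 83.1, 75.4 and 48.7 TPM to 14.3, 7.25 and 37.8 TPM, a fall of 2.01 (SE 0.42, limma adjusted p = 0.0053), while Rplp0 as a gene differed by -0.20 (adjusted p = 0.40). The bases this transcript shares with others of its gene were not counted, so its values may depend on the split of shared reads too.

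Rpl3l has a second, shorter transcript, ENSMUST00000045186, that begins at the second start printed above (chr17:24732685). Of its 1033 bases, 223 lie outside exons of the gene's other coding transcripts, so its values also depend in part on how shared reads were split. By the deposited values, its levels were as follows. It was at 4.87, 2.66 and 3.61 TPM in sham vehicle hearts, 4.19, 4.29 and 3.19 TPM in sham prednisone hearts, 0.93, 2.34 and 1.19 TPM in MI vehicle hearts and 11.5, 12.9 and 5.56 TPM in MI prednisone hearts. The MI vehicle hearts were the lowest of the 12 and the MI prednisone hearts the highest, with no overlap. The rise with prednisone in MI was 2.11 (SE 0.31, limma adjusted p = 8.5e-04) and the interaction 2.04 (SE 0.43, limma adjusted p = 0.011). Both were kept in all 15 alternatives, each mouse left out among them. Those alternatives, the same for every transcript named, held no length correction. The shorter transcript has 1033 bases and the full-length one 1375, and the part of length in this rise was not tested. The shorter transcript made up 8.36% of Rpl3l in MI prednisone hearts and between 1.70% and 2.42% in the other groups. The full-length transcript ENSMUST00000170239 carried the rest of the pattern, with 101.9, 82.2 and 67.2 TPM in MI vehicle hearts and 96.7, 112.8 and 113.9 TPM in MI prednisone hearts. These overlapped, at a difference of 0.38 that limma did not call (adjusted p = 0.060).

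**Figure D5:**
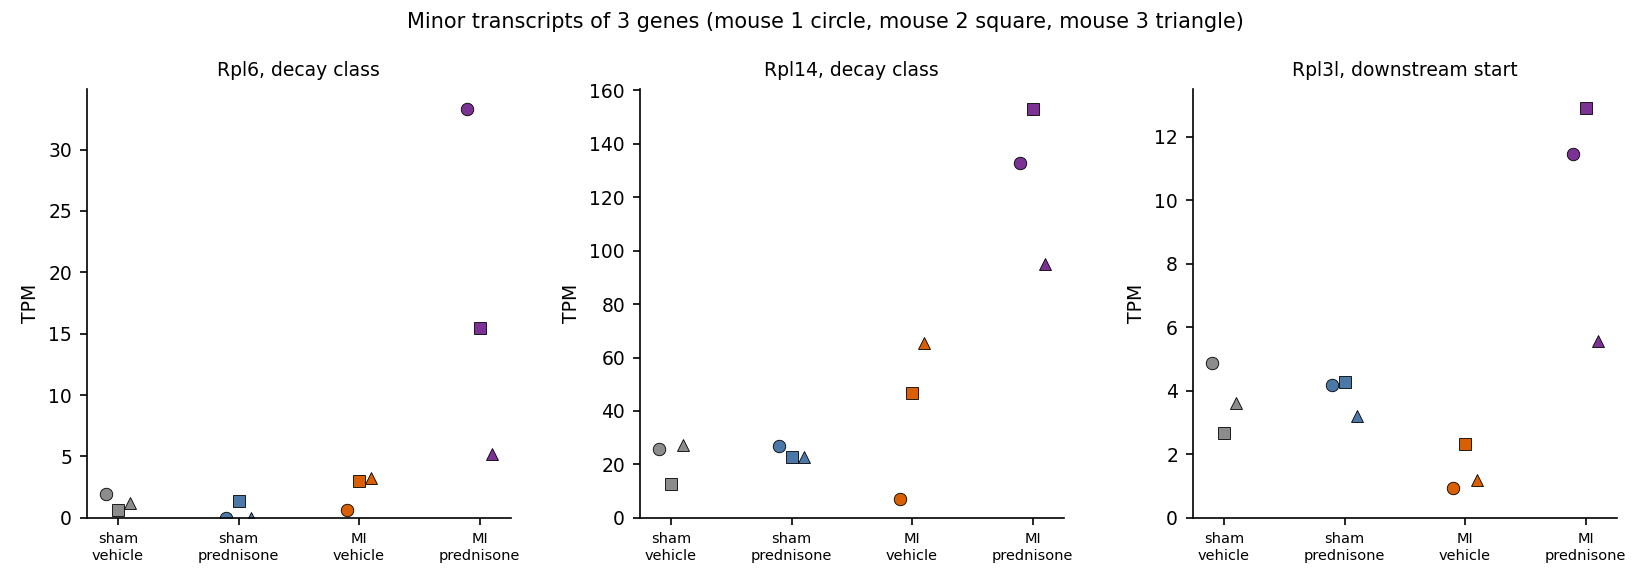
TPM (y axes from 0, separate scales) of the Rpl6 and Rpl14 decay-class transcripts and the Rpl3l transcript from the downstream start, 1 point a mouse in the 4 groups. The 3 MI prednisone hearts lie above the other 9 hearts in each panel. The Rpl6 and Rpl14 transcripts share nearly all their bases with coding transcripts of their genes, so their values depend on how shared reads were split. For the Rpl3l transcript 223 of 1033 bases lie outside exons of the gene's other coding transcripts, so its values depend on that split in part.

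Within the family, a few members departed from the common movement. With each library centred on the median ribosomal protein gene, limma called none of the 83 in MI against sham with vehicle (0.509% of all genes called). It put 4 members at an unadjusted p under 0.05, beside 2751 of all 13158 genes. In the prednisone arm it called Rpl10 (-1.04), Rpl3l (-0.88), Rps3 (-0.52) and Rps7 (-0.37) below the family and Rpl28 (0.41) above it (44.8% and 0.722% of all genes). For prednisone in MI, Rpl10 (-1.09), Rpl3 (-0.52), Rps3 (-0.50) and Rps7 (-0.43) lay below and Rplp2 (0.51) above (16.9% and 1.73%). For the interaction, Rpl10 alone was called (-1.35; 1.73% of all genes were called lower). Rps3, which sits at the mRNA entry of the small subunit, had 333.4, 331.1 and 589.5 TPM in MI vehicle hearts and 307.6, 298.4 and 196.2 TPM in MI prednisone hearts, without overlap. Rplp2, the partner of Rplp1 in the stalk, had 431.8, 472.0 and 901.5 TPM against 912.3, 895.8 and 514.3 TPM, with overlap. Near-identical copies held 59.5%, 58.0% and 41.3% of the sum of gene and copies for Rpl10, Rpl28 and Rps7. They held at most 1.15% for Rpl3, Rpl3l, Rps3 and Rplp2. Copies of Rps7 were at 112.4, 161.9 and 257.4 TPM in MI vehicle hearts and at 197.5, 251.4 and 177.6 TPM in MI prednisone hearts. The centred fit was not run with copies added.

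The ratios of the other paralogue pairs overlapped between sham and infarcted hearts. Rpl22l1 to Rpl22, an RNA-binding pair, had a ratio of 0.170 to 0.207 in sham vehicle hearts and of 0.150 to 0.171 in sham prednisone hearts. After infarction it was 0.155 to 0.203 with vehicle and 0.153 to 0.192 with prednisone. Rps27l to Rps27 was 0.111 to 0.129 in the sham hearts and 0.077 to 0.118 in the infarcted hearts. Rpl7l1 to Rpl7 ran from 0.037 to 0.051 and Rps4l to Rps4x from 0.041 to 0.094 over the 12 hearts. Rpl39l and Rpl10l, forms known from the testis, stayed under 1 TPM in every library. None of these ratios was tested.

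Among members named for their role, most had positive differences after infarction that did not pass the test. The stalk base Rplp0 differed by 0.38 with vehicle (limma adjusted p = 0.14) and 0.21 with prednisone (0.48), and Rplp2 by 0.50 and 0.78 (0.17 and 0.071). Rpl5, Rpl11 and Rpl23, which can bind the p53 regulator MDM2, differed by 0.48, 0.57 and 0.48 with vehicle, with limma adjusted p-values of 0.11, 0.073 and 0.11. Rps19 and Rpl35a, mutated in Diamond-Blackfan anaemia, differed by 0.65 and 0.55 (limma adjusted p = 0.12 and 0.10). Rps27a, made as a fusion with ubiquitin, differed by 0.59 with vehicle and 0.66 with prednisone (limma adjusted p = 0.072 and 0.057). Rpl38, Rps25 and Rpl13a gave 0.50, 0.47 and 0.71 with vehicle, none called.

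The machinery around the ribosome was read from lists of other genes, whose counts stand beside 15.1% of all genes called higher after MI with vehicle and 34.9% called lower with prednisone in MI. Of 19 other TOP mRNAs, such as those of elongation factors, 6 were called higher after MI with vehicle, led by Eef1a1 (1.21) and Pabpc1 (1.14), and 6 lower with prednisone in MI, among them Pabpc1 (-0.96) and Eif4b (-0.77). Of 49 ribosome biogenesis genes, which process and assemble rRNA, 6 rose after MI with vehicle (Ddx18 by 0.80, Nip7 by 0.76 and Ddx21 by 0.71 the most) and 14 fell with prednisone in MI (Tcof1 by 1.07, Ddx21 by 0.98 and Dkc1 by 0.84 the most). Of 24 genes of mTORC1 and initiation control, 1 rose after MI with vehicle, Eif4a1 (0.79), and 15 fell with prednisone in MI, among them the mRNA-binding protein Larp4 (by 0.91) and the cap-binding protein Eif4e (by 0.74). The medians of these 3 lists for prednisone in MI were -0.36, -0.39 and -0.50, beside -0.41 for all genes and -0.13 for the ribosomal proteins. These differences between medians were not tested.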

How the data were processed

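The authors deposited TPM values per transcript in a single table, each column summing to 1000000. The submitters' processing notes name Trimmomatic, HISAT2 and kallisto and the build mm10, without versions or roles. TPM carries no depth, so the number of reads behind a value is unknown and precision rests on the spread between 3 mice a group. Labels speak of tissue from each mouse, so mice are the replicates, and groups were taken from the sample titles. How reads shared by similar transcripts were split is not given in the sources used here.

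TPM of transcripts were added up per gene name. The 13158 genes that reached 1 TPM in 3 or more of the 12 libraries were transformed to log2(TPM + 1). A model of 4 group means over all 12 samples was fitted in limma 3.58.1 (R 4.3.3), with eBayes and a mean-variance trend. P-values were adjusted by Benjamini-Hochberg within each of the 5 comparisons, and a call is an adjusted p under 0.05. Fold changes on this scale understate changes of low genes. The transcript fit used the same steps. The Rpl3l to Rpl3 ratio was tested by exact permutation of labels within strata. Copies were found with blastn 2.17.0 among GENCODE M21 transcripts. The fit was tested on simulated data. Transcript IDs matched GENCODE M21 (GRCm38) for 98.7% of rows with versions ignored.

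Genes were named by a rule: a fixed list of paralogues and members with known roles, plus in each comparison the 5 largest rises and falls among called members with a mean of at least 5 TPM. Members and lists were chosen with earlier results of these data known. Alternatives were other scalings, filters, pseudocounts, the trend, transcripts, the replicate number as a block, the groups fitted, length correction and each mouse left out. Centring on genes with a length, adding copies and the alternatives for transcripts were chosen after seeing the data. Protein sequences are not used here, and results of some genes are not reported here.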

Additional observations from a re-analysis of the deposited data

Results flagged for a closer look

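Rpl10 was the only ribosomal protein gene whose prednisone effect differed between infarcted and sham hearts by the test of the difference itself. The prednisone effect in MI minus that in sham was -1.47 on the log2 scale (SE 0.39, limma adjusted p = 0.024): -1.21 in MI and 0.26 in sham. With the near-identical copies of Rpl10 added the interaction was -0.32 (adjusted p = 0.46), and over the alternatives its adjusted p ran up to 0.46. What the copies' share does to the gene's value was measured only through that sum.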

How the results depend on the processing

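The replicate numbers belong to different mice in each group and did not pair them: same-numbered libraries' deviations correlated between -0.58 and 0.14. The share of all genes called is given after each count. In MI against sham with vehicle, 8 members (16%) were called, against 2 with median-ratio rescaling (7.44%), the replicate block (8.03%), the length correction (5.68%) or centring on genes with a length (6.73%), 5 with mitochondrial, nuclear-copy and globin rows removed (10.4%) or without the trend (15.3%), 0 with family centring (0.509%), only the groups compared (0.0152%), or length correction with the replicate block (0.579%), 1 without a filter (4.52%) or by the most abundant transcript (4.72%), and 4 with copies added (16.4%). With prednisone in both arms, 6 (16.8%) became 64 (median-ratio, 26%), 29 (rows removed, 24.8%), 1 (no filter, 7.25%, the replicate block, 14.4%, or length correction with the replicate block, 7.76%), 3 (no trend, 16%, length correction, 12.8%, or copies, 17.1%), 12 (most abundant transcript, 18%), 15 (only the groups compared, 24.8%) and 58 (centring on genes with a length, 25.3%). For prednisone in MI, 3 (37.4%) became 33 (median-ratio, 28.8%), 6 (rows removed, 38.6%), 5 (family centring, 18.7%), 0 (only the groups compared, 6.14%), 20 (centring on genes with a length, 27.8%) and 1 (copies, 37.9%). The interaction's 1 (21.3%) became 9 (median-ratio, 10.1%), 3 (centring on genes with a length, 8.97%) and 0 (no filter, 8.21%, length correction with the replicate block, 0.754%, or copies, 21.6%). With each mouse left out the counts ran from 0 to 67 (0.912% to 42.8%), 0 to 42 (7.81% to 30.2%), 1 to 7 (24.7% to 47.7%), 0 to 0 (sham) and 0 to 3 (8.44% to 34.4%). The cause of these moves was not tested.

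The ratio of Rpl3l to Rpl3 after MI was -1.97 with vehicle alone and -1.03 with prednisone alone (exact p = 0.10 each, the smallest possible), from -1.70 to -1.24 with each mouse left out, and had an exact p of 0.031 with the replicate block. Its prednisone difference lost its call with the replicate block (0.64, exact p = 0.094) and by most abundant transcript (0.61, exact p = 0.055). That difference ran from 0.38 to 0.84 with each mouse left out. Within MI (1.11) or sham (0.17) alone no call was possible, since 3 against 3 mice cannot give an exact p below 0.10. Reversed were Rpl3l in sham with prednisone, 0.06, to -0.031 (median-ratio), -0.017 (rows removed) and -0.014 (centring on genes with a length), and the interaction of Rpl3, -0.53, to 0.020 (median-ratio). Of the other single-gene and single-transcript values none reversed. No value has a depth behind it, so low values such as those of Rpl5 and Rpl12 have unknown counting error.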

Other observations

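The muscle form of another translation factor was set beside Rpl3l as a description. Eef1a2, the muscle and neuron form of the elongation factor that brings tRNAs to the ribosome, had a TPM ratio to its general form Eef1a1 of 0.644, 0.551 and 0.856 in sham vehicle hearts and of 0.739, 1.05 and 0.891 in sham prednisone hearts. The ratio was 0.419, 0.382 and 0.150 in MI vehicle hearts and 0.465, 0.365 and 0.637 in MI prednisone hearts. MI vehicle mouse 3 had the lowest ratio of both pairs. Eef1a2 itself differed by -0.02 on the log2 scale between MI and sham with vehicle, against -0.83 for Rpl3l, and by -0.41 with prednisone (limma adjusted p = 0.038), against -0.43 for Rpl3l. These ratios were not tested.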
